A study of Mus musculus with 4 samples.

Results

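The genes described here act in the cellular answer to low oxygen and in glycolysis, and were read on 4 arrays from cultured mouse embryonic fibroblasts (MEFs). They were fixed as a list of 41: 7 genes of the HIF switch (HIF regulators), 17 glycolytic enzymes and their regulators, 4 genes of sugar and lactate transport and pyruvate entry, and 13 other targets of HIF. A member entered when a probe carried its symbol and had a detection score above 0.99 on at least 1 array. Of the 41, 4 had no probe under their symbol (Epas1, Gpi1, Pgam1 and Eno1) and are not analysed here, 3 had probes detected on no array (Hif1a, Bnip3 and Ero1l, now named Ero1a), and 34 were detected, 30 of them on all 4 arrays. These 34 genes are part of 10515 detected genes, and their 52 detected probes part of 14776.

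The cells were wild type (WT) or lacked Stat3 (STAT3KO), a transcription factor gene, and both were labelled as MEF cell lines of strain C57BL/6. Each was left untreated or given interferon alpha (IFNa) at 1000 U per ml for 2 h, and each of the 4 combinations was measured once, on 1 Illumina bead array, so no value has a replicate error. The sources used here do not state how many lines stand for a genotype, how the knockout was made, or at what oxygen level the cells grew. The arrays detected 16076 to 17524 probes. Stat3 itself stood at normalized log2 intensities of 10.66 and 10.92 in WT untreated and WT IFNa, and of 6.51 and 6.12 in the same order in STAT3KO. Of 14 fibroblast markers 13 were detected and 10 were lower in STAT3KO (limma, adjusted p under 0.05), where 19.4% of all genes were. Thy1 and Fbln2 entered that test through the WT arrays alone. The list medians were 11.84 and 11.78 in WT and 7.88 and 7.77 in STAT3KO. The mesenchymal filament gene Vim lay between 15.10 and 15.28 on all arrays. None of 7 haematopoietic markers was detected, and of 6 epithelial, 5 endothelial and 4 muscle markers 4, 3 and 1 were.

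HIF is a transcription factor made of an oxygen-sensitive alpha subunit (Hif1a or Epas1) and a constant partner (Arnt). With oxygen, the prolyl hydroxylases of the Egln family mark the alpha subunit and the Vhl ubiquitin ligase sends it for destruction; without oxygen it enters the nucleus and switches on genes for glucose uptake, glycolysis, blood vessel growth, acid export and mitochondrial turnover. Because the switch works on the protein, transcript levels of its subunits say little about its activity, and its targets are commonly read in its place. Several of the targets, Egln3 among them, feed back on the switch, and many answer to other stress and nutrient signals as well.

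**Figure D1:**
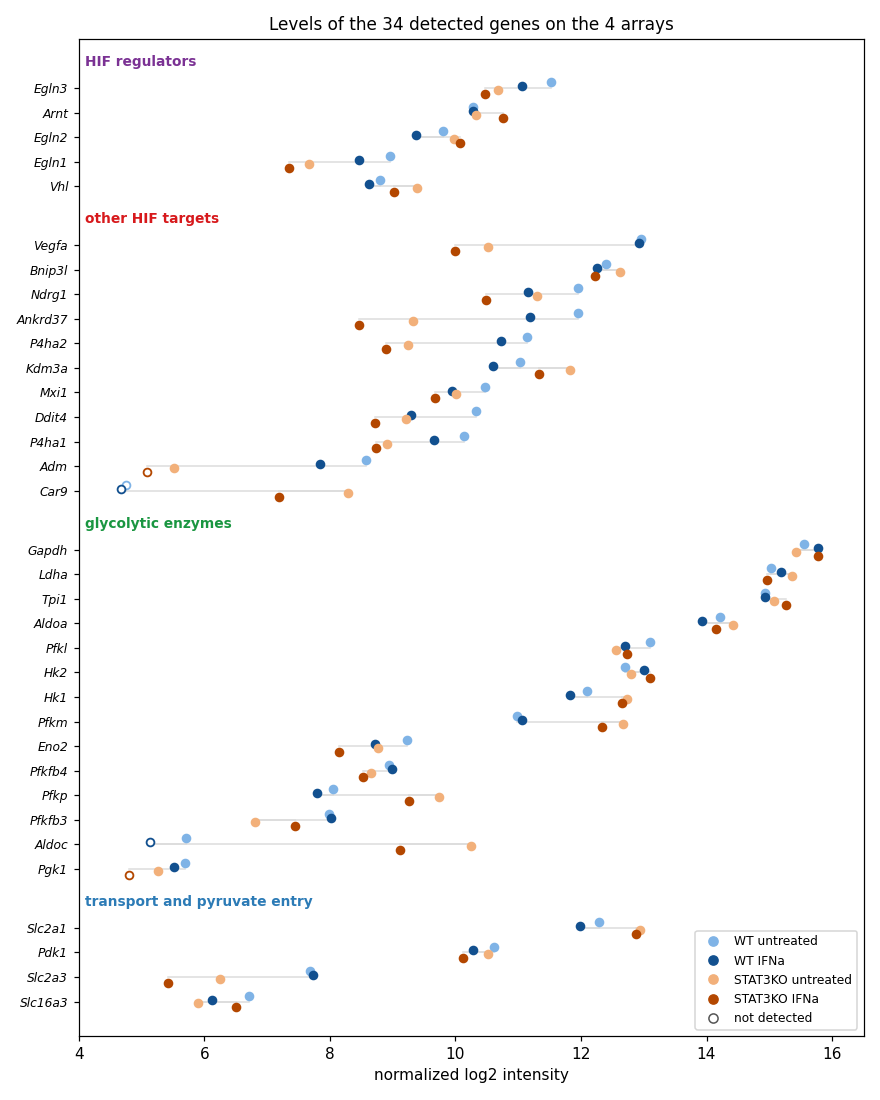
Normalized log2 intensity (x axis) of the 34 detected genes (rows, grouped by role and ordered by the WT untreated level), with 1 point for each of the 4 arrays and open points where the probe was not detected. In the STAT3KO arrays (orange and brown) Vegfa, Ankrd37 and Adm lie to the left of the WT arrays (blue) and Aldoc, Car9, Pfkm and Pfkp to the right, and within each colour pair the IFNa point of Ndrg1, Ankrd37 and Ddit4 lies to the left of the untreated one. Levels are not comparable between genes.

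The first comparison asked what 2 h of IFNa did to these genes. Of the 11 detected genes on the list of other HIF targets, the 9 seen on all arrays had lower values with IFNa in both cell lines. Vegfa in WT was nearly level. Of the 4 genes of transport and pyruvate entry, kept apart from that list, 2 were lower in both lines and 2 went opposite ways. The glycolytic enzymes were divided. Over all genes 22.2% were lower in both lines. The lists were drawn up with earlier results of these data known. Ndrg1, a stress-induced cytoplasmic protein gene, Ankrd37, which encodes an ankyrin-repeat protein, and Ddit4, which encodes an inhibitor of the growth kinase complex mTORC1, fell by 1.75-fold, 1.75-fold and 1.70-fold on average over both genotypes. No member rose. Fold changes are back-transformed differences of log2 intensity after background correction with an offset, which understates the change of dim genes.

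Ndrg1 had normalized log2 intensities of 11.95 before and 11.16 after IFNa in WT, and of 11.30 before and 10.48 after it in STAT3KO. Both IFNa arrays were lower than the untreated array of their own line, by nearly the same step, with a log2 response of -0.79 for WT and -0.82 for STAT3KO. The mean response was -0.81 ± 0.12 (limma SE, adjusted p = 0.000998 over 10515 genes). A second Ndrg1 probe, detected on all arrays, gave responses of -0.89 and -0.81.

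Ankrd37 stood at 11.95 and 11.19 in WT untreated and IFNa, and at 9.32 and 8.46 in STAT3KO. It was lower with IFNa from either starting level, with log2 responses of -0.76 and -0.86 and a mean of -0.81 ± 0.12 (limma SE, adjusted p = 0.00185). Ddit4 stood at 10.33, 9.29, 9.21 and 8.72 in the same order of arrays. Its response was -1.04 in WT and -0.49 in STAT3KO, and the mean was -0.77 ± 0.15 (limma SE, adjusted p = 0.0217). The STAT3KO untreated level of Ddit4 was thus already near the WT level under IFNa.

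The 300-base promoters of Ankrd37, Ddit4 and Aldoc (250 bases before the RefSeq start to 50 after it, GRCm38.p6) are shown. None was available for Ndrg1. They are shown because HIF binds DNA through a short core, here searched as ACGTG and GCGTG on both strands and set in capitals. A palindrome CACGTG, the E-box that other factors also bind, holds the first of these on both strands and counts as 2 overlapping matches. Ankrd37 (chr8:45999801-46000100, minus strand) held 4 matches, at -241, -155, -152 and -6 from the start, those at -155 and -152 overlapping. Ddit4 (chr10:59951721-59952020, minus strand) held 2, at -187 and -115. Aldoc had the largest mean response without passing the test and has 2 promoters. The first (chr11:78322823-78323122, plus strand) held 3, at -50, 12 and 28. The second, not shown, held 1, at -39.
Ankrd37: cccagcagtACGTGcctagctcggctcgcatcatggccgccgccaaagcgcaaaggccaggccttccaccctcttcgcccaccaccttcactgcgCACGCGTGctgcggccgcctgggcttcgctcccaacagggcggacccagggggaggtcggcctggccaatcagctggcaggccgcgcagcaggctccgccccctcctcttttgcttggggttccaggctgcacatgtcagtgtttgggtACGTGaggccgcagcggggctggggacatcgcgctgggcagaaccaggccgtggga
Ddit4: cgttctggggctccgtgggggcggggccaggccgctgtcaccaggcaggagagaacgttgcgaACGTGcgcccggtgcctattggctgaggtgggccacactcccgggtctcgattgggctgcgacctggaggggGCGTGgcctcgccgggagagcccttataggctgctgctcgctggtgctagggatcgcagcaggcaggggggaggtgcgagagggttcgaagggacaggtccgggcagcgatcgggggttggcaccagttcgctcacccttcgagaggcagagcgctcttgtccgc
Aldoc: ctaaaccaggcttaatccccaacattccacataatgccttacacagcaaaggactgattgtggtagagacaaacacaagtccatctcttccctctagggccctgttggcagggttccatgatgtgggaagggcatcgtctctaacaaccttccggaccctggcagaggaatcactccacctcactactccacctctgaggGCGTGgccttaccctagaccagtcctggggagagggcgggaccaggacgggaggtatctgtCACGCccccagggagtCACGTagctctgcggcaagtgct

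Such matches were common. At least 1 was found in 59.7% of the 10888 promoters of detected genes and in 43.8% of all 32851 promoters, against 71.4% of 14 promoters of the other HIF targets and 78.3% of 23 promoters of the glycolytic enzymes. The share with at least 2 was 32.2% for detected genes, 42.9% for the other targets and 47.8% for the enzymes. The share was thus no lower among the enzymes than among the other targets. A match is a run of letters and not a measured binding site. Promoters were available for 31 of the 34 members, and not for Ndrg1, Slc2a3 and Bnip3l.

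**Figure D2:**
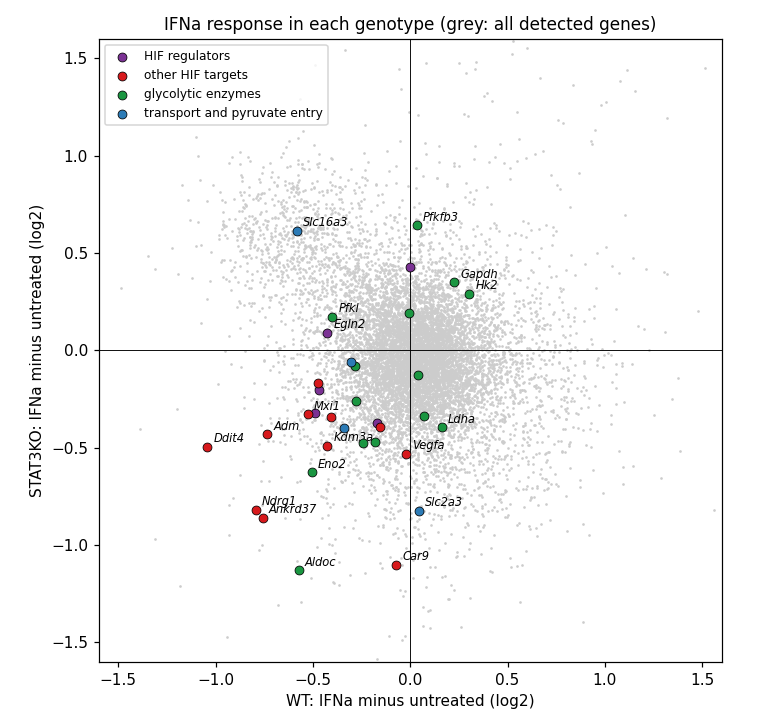
Log2 difference of IFNa minus untreated in WT (x axis) and in STAT3KO (y axis) for all detected genes (grey) and for the members, coloured by role. The axes end at 1.6 either way, which leaves 77 of 10515 genes outside. All 11 other HIF targets (red) lie below 0 on both axes, Ndrg1 and Ankrd37 near the diagonal, while Gapdh and Hk2 lie above 0 on both; undetected probes are drawn at their measured values.

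Of the other 8 targets, none passed the test of the mean response after adjustment over all genes. Kdm3a, a histone demethylase gene, stood at 11.03 and 10.60 in WT and at 11.82 and 11.33 in STAT3KO. Its responses of -0.43 and -0.49 were close to each other, the mean was -0.46 ± 0.12 (limma adjusted p = 0.110), and a second probe detected on all arrays gave -0.42 and -0.37. Mxi1, a Myc antagonist, had responses of -0.53 and -0.33, and P4ha2 and P4ha1, the catalytic subunits of collagen prolyl 4-hydroxylase, had -0.41 and -0.34, and -0.47 and -0.17. A dimmer P4ha1 probe, detected on 2 arrays only, gave 0.08 in WT and -0.12 in STAT3KO. Bnip3l, a mitophagy receptor, had -0.15 and -0.39. Vegfa, the main growth factor of blood vessels, was at 12.95 and 12.93 in WT, a response of -0.02, and at 10.52 and 9.99 in STAT3KO, a response of -0.53.

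Adm and Car9 were at the edge of detection on some arrays. Adm, which encodes the vasodilator peptide adrenomedullin, went from 8.58 to 7.84 in WT, and in STAT3KO from 5.52 to below detection, a drop of at least 1.11-fold. The brighter Car9 probe, for a surface carbonic anhydrase of hypoxic cells, was detected on neither WT array, so its WT response of -0.07 lies between background values, and went from 8.29 to 7.19 in STAT3KO. A second, dimmer Car9 probe was detected on all arrays and gave -0.51 and -0.02. Car9 is thus counted as lower in both lines only through background values in WT.

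In the HIF switch itself, 3 of 5 detected genes were lower with IFNa in both lines, where 22.2% of all genes were. None passed the test. At an unadjusted p under 0.05 (limma) 2 were lower and none higher, beside 1.95% and 2.23% of all genes. Egln1, the main oxygen sensor among the prolyl hydroxylases, stood at 8.96 and 8.47 in WT and at 7.67 and 7.35 in STAT3KO, though 2 dimmer probes gave mean responses of 0.03 and 0.22. Egln3, an inducible sensor, stood at 11.52 and 11.05, and at 10.68 and 10.48. A dimmer Egln3 probe, detected on all arrays, gave responses of -0.39 in WT and 0.05 in STAT3KO. Egln2 stood at 9.79 and 9.37 in WT and at 9.97 and 10.07 in STAT3KO. Vhl stood at 8.80 and 8.62 in WT and at 9.39 and 9.02 in STAT3KO. Arnt stood at 10.29 on both WT arrays and at 10.33 and 10.76 in STAT3KO, while its 3 other detected probes gave STAT3KO responses of -0.13 to -0.48.

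Among the 14 detected glycolytic enzymes and regulators, 6 were lower with IFNa in both lines, 3 were higher in both and 5 went opposite ways. Over all genes 22.2% were lower in both, 21.6% were higher in both and 5913 of 10515 went opposite ways. None of the 14 passed the test of the mean response. At an unadjusted p under 0.05 (limma) 3 were lower and 1 higher, beside 1.95% and 2.23% of all genes. Aldoc, the brain-type aldolase, went from 5.71 to a value not detected in WT, at least 1.37-fold lower, and from 10.25 to 9.12 in STAT3KO, 2.19-fold lower. Its mean response was -0.85 ± 0.22 (limma adjusted p = 0.137). Eno2, the neuron-type enolase, stood at 9.23 and 8.72 in WT and at 8.77 and 8.15 in STAT3KO, a mean of -0.57 ± 0.16 (limma adjusted p = 0.195).

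The enzymes with bright signals were divided as well. Gapdh, which oxidises glyceraldehyde phosphate, stood at 15.55 and 15.78 in WT and at 15.43 and 15.78 in STAT3KO, and its 2 other probes gave mean responses of 0.24 each. These values lie at the top of the arrays' range. Hk2, an inducible hexokinase that commits glucose to the pathway, stood at 12.71 and 13.01, and at 12.80 and 13.10, a mean response of 0.30 ± 0.12 (limma adjusted p = 0.988). Pfkfb3, which makes the allosteric activator of phosphofructokinase, was level in WT at 7.98 and 8.02 and went from 6.81 to 7.45 in STAT3KO. Aldoa was lower by 0.28 and 0.26 (log2), Tpi1 had responses of -0.01 and 0.19, and Ldha, which turns pyruvate to lactate, had 0.16 and -0.40. Pgk1 was represented by a probe at 4.79 to 5.70 that was detected on 3 arrays only, so its level was barely measured.

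Of the transport genes, the lactate exporter gene Slc16a3 had responses of -0.58 in WT and 0.61 in STAT3KO, and its second probe gave -0.61 and 0.65. Slc16a3 is dim, at 5.89 to 6.71, and the pattern was more frequent among dim genes: of 1661 genes seen on all arrays whose mean log2 intensity was under 7, 63 were at least 1.5-fold lower in WT and higher in STAT3KO, or 3.79%, against 0.112% of 5335 genes whose mean reached 8. The reverse, higher in WT and lower in STAT3KO, was seen in 10 of the 1661, so dim genes moved mostly in 1 direction. Pdk1, a kinase that inhibits pyruvate dehydrogenase, was lower in both lines, by 0.34 and 0.40 (log2), with an adjusted p of 0.437 (limma). Slc2a1, the main glucose carrier of fibroblasts, had responses of -0.30 and -0.06. Slc2a3, a high-affinity carrier, had 0.04 and -0.82.

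Counted together, 3 of 34 members fell and 0 rose, where 0.133% of all 10515 genes fell and 0.751% rose (limma, adjusted p under 0.05). At an unadjusted p under 0.05, 15 members were lower and 1, Hk2, was higher, where 205 of all genes, 1.95%, were lower and 234, 2.23%, higher. Without regard to size, 22 of the 34 members, 64.7%, were lower with IFNa in both lines, where 22.2% of all genes were. Among the 30 detected on all arrays the count was 18, beside 22.6% of 8129 such genes. Higher in both were 3 members, and 21.6% of all genes. Among the 27 members detected on all arrays whose mean log2 intensity reached 8, 66.7% were lower in both lines, against 25.2% of the genes of that brightness. The median mean response (log2) was -0.46 for the other HIF targets, -0.27 for the switch genes, -0.28 for transport and pyruvate entry and -0.12 for the glycolytic enzymes, and 0.00 over all genes.

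The steps were modest. At 1.5-fold, 4 of 33 members were lower in WT (Adm, Ankrd37, Ddit4 and Ndrg1) and 0 higher, where 4.87% and 4.6% of all genes were. In STAT3KO 6 of 34 were lower (Aldoc, Ankrd37, Car9, Eno2, Ndrg1 and Slc2a3) and 2 higher (Pfkfb3 and Slc16a3), where the shares of all genes were 5.05% and 6.31%. The p-values hold no spread between replicates: they rest on how far the lines disagree (1 residual degree of freedom) and on a spread borrowed from the other genes, worth 14.2 degrees of freedom. No member passed with scaling to the 75th percentile or without the intensity trend in the variance. The mean responses of Ndrg1, Ankrd37 and Ddit4 were -0.69, -0.71 and -0.67 (log2) under that scaling and as reported without the trend, while 13 of 34 members were lower in both lines under the scaling, where 8.87% of all genes were.

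Genes of the same pathways outside the list were read for comparison. Of 35 detected further hypoxia genes 3 fell and none rose, where 0.133% of all genes fell and 0.751% rose. The list had a median mean response of -0.15 (log2). The 3 were Ppp1r3c, a glycogen-targeting phosphatase subunit gene, with responses of -0.94 and -1.47, Selenbp1, at least 2.05-fold lower in WT, where IFNa took it below detection, and with a response of -1.21 in STAT3KO, and Ccng2, a cyclin-like gene, with -0.61 and -0.56. Selenbp1 was put on that list with its fall already known, and Ccng2 is named after its values were seen. With the 3 members, 6 of the 14 genes that fell across the array thus come from these lists, or 5 without Selenbp1. Members and lists were all chosen with earlier results of these data known, so neither count is independent of the falls. None of 9 further glycolysis genes, 21 pyruvate dehydrogenase and citrate cycle genes, 5 pentose phosphate genes and 10 housekeeping genes passed the test (limma). At the shares of all genes given above, lists this short would seldom hold a call. At an unadjusted p under 0.05 (limma) there were 0 lower and 1 higher, Idh3a, beside 1.95% and 2.23% of all genes. Their medians were -0.07, 0.01, -0.02 and 0.06. Idh3a, a subunit of isocitrate dehydrogenase, had log2 responses of 0.39 and 0.22.

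**Figure D3:**
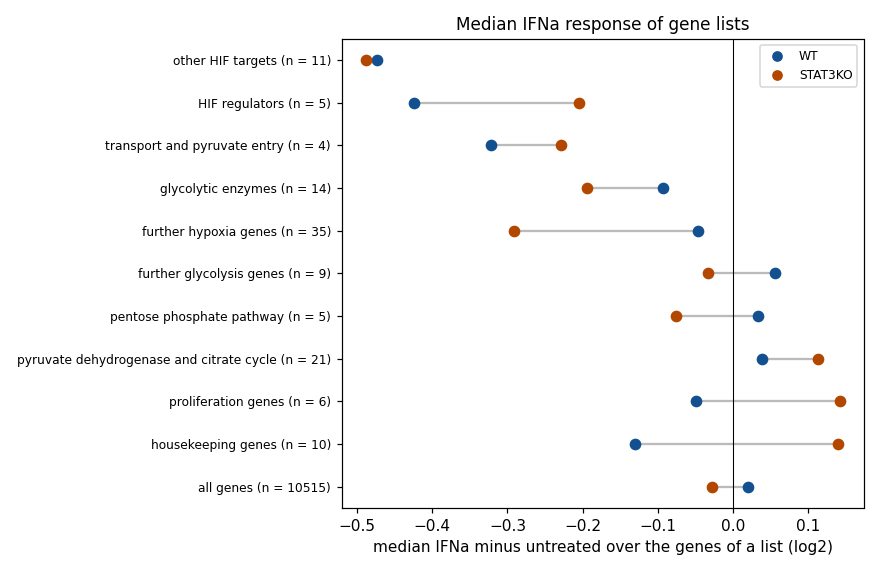
Median log2 difference of IFNa minus untreated over the detected genes of each list (rows, with the number of genes), in WT (blue) and in STAT3KO (brown). The other HIF targets lie at -0.47 and -0.49, farthest below 0 of the lists plotted (epithelial markers, not plotted, lie at -0.47 in WT), and the median of all genes lies at 0.02 and -0.03.

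The number of detected probes was 16076 untreated and 16814 with IFNa in WT, and 17524 and 16096 in STAT3KO. The 6 detected proliferation genes had a median mean response of 0.05 (log2) and the 13 detected fibroblast markers of -0.12. The 4 detected epithelial markers, of which 1 to 3 were detected on an array, had a median of -0.41, and 3 were lower in both lines. Their part in the result was not tested.

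The second comparison set STAT3KO against WT. More members passed the test between the lines than with IFNa, and in both directions: Adm, Vegfa and Ankrd37 were the most reduced in STAT3KO, and Aldoc, Pfkp and Pfkm the most raised among the members detected in both lines. Of the 34 members 13 were lower and 9 higher in STAT3KO (limma, adjusted p under 0.05), where 19.4% of all genes were lower and 22.5% higher. The share of members that was lower was 38.2% and the share that was higher 26.5%. With the fit limited to genes detected on all arrays, 7 were higher. Genotype and cell line cannot be told apart, and fewer cells of a kind and less RNA per cell cannot be told apart in bulk RNA. The fibroblast markers differed along with these genes, and their part in the differences was not tested.

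Of the 11 other HIF targets 8 were lower and 2 higher in STAT3KO. Vegfa was 5.39-fold lower untreated and 7.67-fold lower with IFNa, from the levels given above, a mean log2 difference of -2.68 ± 0.13 (limma SE, adjusted p = 1.37e-10). Ankrd37 was 6.17-fold and 6.62-fold lower (limma adjusted p = 5.96e-11). Adm was 8.36-fold lower untreated and at least 5.55-fold lower with IFNa, where STAT3KO did not detect it (limma adjusted p = 2.69e-07). The collagen hydroxylase subunits moved together: P4ha2 was 3.74-fold and 3.57-fold lower, and P4ha1 2.35-fold and 1.90-fold lower (limma adjusted p = 6.05e-09 and 1.40e-05). Ddit4, Ndrg1 and Mxi1 were lower by smaller steps, with mean log2 differences of -0.84, -0.66 and -0.37.

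Against that direction, Kdm3a exceeded its WT level by 1.73-fold and 1.66-fold in STAT3KO (limma adjusted p = 6.18e-05), and both of its dimmer probes were higher there too. The brighter Car9 probe, not detected in WT, was at least 7.55-fold higher untreated and at least 3.81-fold higher with IFNa. It entered the test through the STAT3KO arrays alone, so its call carries no weight of its own. The second Car9 probe, detected on all arrays, differed by -0.04 untreated and 0.45 with IFNa (log2). Another surface carbonic anhydrase gene, Car12, which was not a member, was higher in STAT3KO by a mean log2 difference of 3.34 ± 0.15 (limma SE, adjusted p = 6.35e-11). Bnip3l differed by 0.22 untreated and -0.02 with IFNa.

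**Figure D4:**
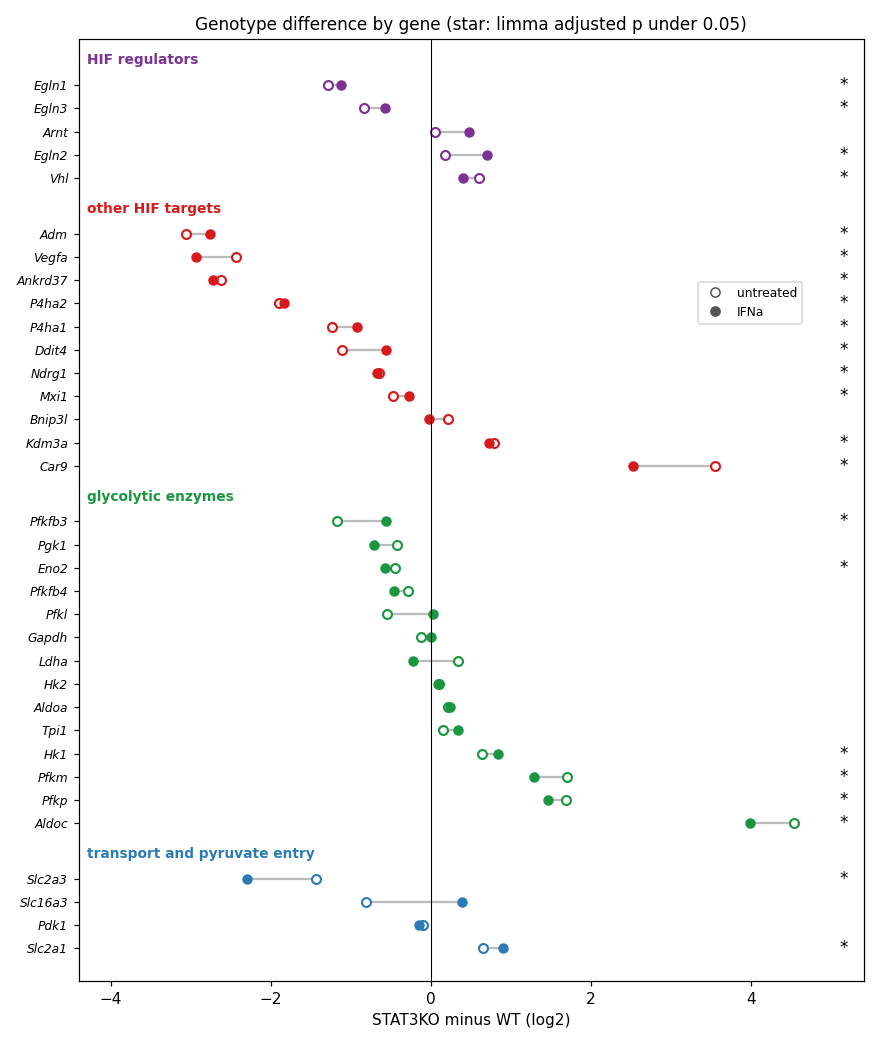
Log2 difference of STAT3KO minus WT (x axis) for the 34 members (rows, by role), untreated (open) and under IFNa (filled), with a star beside genes whose mean difference had a limma adjusted p under 0.05. Adm, Vegfa and Ankrd37 lie below -2.4, Aldoc lies near 4, and the open and filled points of most genes lie on the same side of 0. Undetected probes of Adm, Aldoc, Car9 and Pgk1 are drawn at their measured values.

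The HIF switch genes split as well. Egln1 was 2.44-fold lower untreated and 2.17-fold lower with IFNa (limma adjusted p = 5.57e-05), and its 2 dimmer probes were lower too. Egln3 was 1.79-fold and 1.49-fold lower (limma adjusted p = 0.000182). Its dimmer probe, detected on all arrays, differed by only -0.57 untreated and -0.12 with IFNa (log2). Vhl was 1.51-fold and 1.32-fold higher and Egln2 1.13-fold and 1.62-fold higher (limma adjusted p = 0.0142 and 0.0225). Arnt had a mean log2 difference of 0.26 on its brightest probe (limma adjusted p = 0.132), and 0.75, 1.02 and 0.62 on its other detected probes. All 4 probes were higher in STAT3KO in both treatments, by different amounts. Hif1a is represented by 3 probes that were detected on no array.

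Among glycolytic genes the isoforms of a step differed between the lines. For aldolase, STAT3KO had 23.2-fold more Aldoc signal untreated and at least 14.5-fold more with IFNa (limma adjusted p = 2.85e-10). This rests on 1 probe. Another Aldoc probe was detected on no array, STAT3KO included, and differed by -0.15 and 0.19 (log2). The ubiquitous Aldoa differed by 0.21 and 0.23 (log2). For phosphofructokinase, the gatekeeper of the pathway, the muscle-type gene Pfkm stood at 10.98 and 11.06 in WT and at 12.68 and 12.34 in STAT3KO, and the platelet-type gene Pfkp at 8.04 and 7.80, and at 9.73 and 9.25. Both were higher on each STAT3KO array than on each WT array (limma adjusted p = 1.02e-07 and 7.82e-07), while the liver-type gene Pfkl, at 13.11, 12.70, 12.56 and 12.73, was not called (limma adjusted p = 0.166). For hexokinase, Hk1 was 1.55-fold and 1.79-fold higher (limma adjusted p = 0.000119) and Hk2 1.07-fold and 1.06-fold.

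Glucose carriers went opposite ways. Slc2a1 stood at 12.29 and 11.99 in WT and at 12.94 and 12.88 in STAT3KO, a mean log2 difference of 0.77 ± 0.12 (limma SE, adjusted p = 8.99e-05). Slc2a3 stood at 7.69 and 7.73 in WT and at 6.25 and 5.43 in STAT3KO, a difference of -1.87 ± 0.29 (limma SE, adjusted p = 6.55e-05). Pfkfb3 was lower in STAT3KO, 2.26-fold and 1.48-fold (limma adjusted p = 0.00504), as was Eno2, 1.37-fold and 1.49-fold (limma adjusted p = 0.0149). The abundant enzymes Gapdh, Ldha, Tpi1 and Aldoa and the kinases Hk2 and Pdk1 were not called, with mean log2 differences of -0.06, 0.06, 0.24, 0.22, 0.09 and -0.13.

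The genotype difference had the same sign with and without IFNa for 29 of the 34 members. The share over all genes was not counted, so this is not read as a trait of the members. At 1.5-fold in both treatments, 8 members were lower (Adm, Ankrd37, Egln1, Ndrg1, P4ha1, P4ha2, Slc2a3 and Vegfa) and 7 higher (Aldoc, Car9, Hk1, Kdm3a, Pfkm, Pfkp and Slc2a1), where 13% and 15.4% of all genes were. Untreated, 12 members were lower and 8 higher, beside 21.9% and 24% of all genes. With IFNa 9 were lower and 8 higher, beside 19.5% and 22.3% of all genes. These counts take undetected probes at their measured values, and Pgk1, 1 of the 9, was by its bound only at least 1.10-fold lower. By role the median mean difference (log2) was -0.84 for the other HIF targets, 0.26 for the switch genes, -0.17 for transport and pyruvate entry and 0.08 for the glycolytic enzymes, and 0.02 over all genes. With scaling to the 75th percentile 6 members were called lower and 3 higher. The calls of Kdm3a, P4ha1, Pfkm, Hk1 and Slc2a1 were lost under that scaling alone (limma adjusted p = 0.589, 0.254, 0.0543, 0.544 and 0.465). Those of Ndrg1, Ddit4, Mxi1, Pfkfb3, Eno2, Vhl, Egln2 and Egln3 were lost both under it and without the intensity trend, and that of Mxi1 also with the mean of detected probes. All kept their direction.

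Of the 35 further hypoxia genes 14 were lower and 7 higher in STAT3KO (limma, adjusted p under 0.05). Over all genes 19.4% were lower and 22.5% higher, the shares to set beside this list and those that follow. Igfbp3, a carrier of insulin-like growth factors, stood at 11.05 and 11.42 in WT and was not detected in STAT3KO. Edn1, the vasoconstrictor endothelin, stood at 9.46 and 9.12 in WT and was not detected in STAT3KO. Both entered the test through the WT arrays alone, so their calls carry no weight of their own. Of 9 further glycolysis genes 2 were lower and 3 higher. Ldhb, the heart-type lactate dehydrogenase, stood at 7.96 and 8.20 in WT and at 10.68 and 10.42 in STAT3KO, and Eno3, the muscle-type enolase, at 10.53 and 10.46, and at 12.04 and 12.12. Among 21 detected genes of pyruvate dehydrogenase and the citrate cycle 2 were lower and 8 higher. Pdk4, among the 8, entered the test through the STAT3KO arrays alone. Of 5 pentose phosphate genes 0 were lower and 2 higher (limma, also 0 lower at an unadjusted p under 0.05).

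The crossed design also allows the responses of the lines to be set side by side, as values without a test. The STAT3KO minus the WT response (log2) was -0.10 for Ankrd37, whose untreated level was 6.17-fold apart between the lines, -0.06 for Kdm3a and Pdk1, 0.02 for Aldoa and -0.01 for Hk2. It was 0.55 for Ddit4, which was lower with IFNa by more in WT, and -0.51 and -0.87 for Vegfa and Slc2a3, which were lower by more in STAT3KO.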

How the data were processed

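Total RNA of 4 samples was measured on Illumina mouse bead arrays, processed by the authors with BeadStudio 3.2.3, per the submitters' processing notes. The authors deposited a linear intensity and a detection score per probe; per the file headers the WT untreated intensities were already normalized, and they equal the authors' normalized intensities for that array (largest difference 0). The sources used here do not give the method of the authors' normalization. Precision is limited by the number of arrays. Intensities were corrected for background by normexp (offset 16, from the detection p) in limma 3.58.1 under R 4.3.3, quantile-normalized and taken to log2. Of 46632 probes 29976 had 1 symbol, updated through RefSeq (GRCm38.p6), naming 17708 genes; the brightest probe stood for each. The mean IFNa response and genotype difference were fitted with limma (genotype plus treatment, eBayes with a trend on intensity) and adjusted by Benjamini-Hochberg across the 10515 detected genes, checked on simulated data. Against an undetected value a fold is a bound, taken from that array's lowest detected value or from the probe's own value if higher. Promoters came from RefSeq. Members, lists and tests were chosen with earlier results of these data known. All members may be named; the rule gave array values to those passing the IFNa test, the 8 largest responses, the 12 largest genotype differences and the switch genes, and up to 3 genes of each other list. Protein sequences were not used here.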

Additional observations from a re-analysis of the deposited data

Results flagged for a closer look

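Among the 30 members detected on all arrays, 10 had effects of opposite sign in the groups compared, which was not tested and has no replicate behind it. For 9 of them the IFNa response differed in sign between the lines, given as the STAT3KO minus the WT response on the log2 scale. Slc16a3 had the largest, 1.19, and then Slc2a3 with -0.87, Pfkl with 0.57, Ldha with -0.56, Egln2 with 0.52, Arnt with 0.43, Pfkm with -0.41, Tpi1 with 0.20 and Pfkfb4 with -0.17. The 9 are 30% of these members, where 54.6% of 8129 genes detected on all arrays had opposite responses. The 3 other detected Arnt probes went the other way, higher with IFNa in WT and lower in STAT3KO. In Arnt and Tpi1 the WT response was within 0.01 of 0. For Bnip3l the genotype difference changed sign between treatments, with the same quantity at -0.24. Among the 9, Slc16a3, Pfkl and Ldha also changed sign in the genotype difference. Their values untreated and with IFNa were -0.81 and 0.38, -0.55 and 0.03, and 0.34 and -0.22.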

How the results depend on the processing

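The fit sets treatments against each other within each line. No further analysis paired by replicate was possible because each group is 1 array and so has no second replicate number. No array could be left out. The array labels share a code and differ in a letter, A to D. The sources used here do not state what the code stands for. The count of 3 members that fell with IFNa was 5 with no background correction, with offset 50, with the authors' normalized values and with the mean of detected probes, and 0 under 75th percentile scaling or with no intensity trend. The median response of the other HIF targets (-0.46) was -0.40, -0.45, -0.38 and -0.43 in those first 4 settings, -0.43 among genes detected on all arrays and with no detection filter, -0.40 with cyclic loess and -0.30 with the 75th percentile, below 0 throughout. For transport and pyruvate entry (-0.28) it was -0.18 with the authors' values or no background correction, -0.17 with cyclic loess and -0.0775 with the 75th percentile. That scaling moved the median response of all genes to 0.30 in WT and -0.12 in STAT3KO. Under it the medians of the glycolytic enzymes turned, to 0.0174 in the response and -0.0748 in the genotype difference, 13 members were lower with IFNa in both lines (22 as reported), and 6 were lower and 3 higher in STAT3KO (13 and 9). Its 1.5-fold counts were 2 lower and 1 higher in WT with IFNa, 12 lower in STAT3KO with IFNa, and 14 lower and 4 higher in STAT3KO under IFNa. With no intensity trend 7 members were lower in STAT3KO. The 2 members 1.5-fold higher with IFNa in STAT3KO were 0 with no background correction, offset 50 and the authors' values. Over 10 alternatives the adjusted p (limma) of Ndrg1 ran from 3.98e-07 to 0.99998, of Ankrd37 from 1.05e-06 to 0.99998 and of Ddit4 from 7.69e-05 to 0.99998; Ddit4 was also lost with no detection filter (0.0859). Kdm3a passed with no background correction, offset 50 and the authors' values, Aldoc in these and with cyclic loess and the mean of detected probes, and Eno2 with that mean. None of the mean responses and mean genotype differences that were checked gene by gene changed sign. The mean IFNa responses of Vegfa, Mxi1, Hk2, Gapdh, Slc2a3 and other members were not checked in this way. Signs within a line did change under the 75th percentile scaling, where 13 members and not 22 were lower in both lines. The genotype calls lost are given with the genotype results. The cause was not tested.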
